A study of Mus musculus with 5 samples.

Results

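The genes described here encode parts of the tight junction other than claudins, together with polarity proteins that place the junction. They are Ocln, Marveld2, Marveld3 and F11r, whose products span or sit in the membrane, the scaffold genes Tjp1, Tjp3 and Cgn, and the polarity genes Pard3 and Pard6b. The 9 genes were chosen by name with earlier results of these data known, so the shares given for them are not those of an unselected set. All 9 were found among the 24970 genes of the count files and passed the filter on low counts, which left 14779 genes. RNA was sequenced from urothelium, the epithelial lining of the bladder, dissected off the muscle layer of mice aged 10 weeks. The animals were 3 Nicastrin knockouts (KO 1 to KO 3) of genotype Krt5CreERT2;Ncstnflox/flox and 2 wild types (WT 1 and WT 2) labelled as strain C57Bl/6, with 1 library for each mouse. Krt5CreERT2 is a Cre recombinase under the promoter of Krt5, a keratin gene of basal cells, so that the floxed Ncstn alleles are the target in these cells and their descendants. Ncstn encodes Nicastrin, a subunit of the gamma-secretase that cuts Notch receptors and so frees their signalling part. For the knockouts the labels give the genotype in place of a strain, and the sources used here do not state how the Cre was induced, so loss of Ncstn, the Cre and strain background cannot be told apart.

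Tight junctions close the gap between neighbouring epithelial cells and separate the apical from the basolateral membrane. Claudins form the strands, occludin and tricellulin sit in or between them, and the ZO proteins and cingulin bind the strands from inside and link them to actin. Par-3, Par-6 and atypical protein kinase C form a polarity complex that positions the junction. In the bladder the umbrella cells of the surface layer carry the main tight junction belt, which holds back urine.

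Of the 9 genes, 5 rose in the knockouts and 4 did not pass the test. None fell in edgeR with scaling to all genes, in DESeq2 or in limma-voom, and none was lower at an unadjusted p under 0.05. The genes that rose were Pard6b, 2.05-fold, Tjp3, 1.52-fold, Cgn, 1.36-fold, Ocln, 1.32-fold, and Marveld3, 1.28-fold, when libraries were scaled to all genes. Over all tested genes 9.64% were called higher and 10.0% lower by edgeR (quasi-likelihood fit, Benjamini-Hochberg adjusted p under 0.05). The median log2 fold change was 0.36 over the 9 genes and 0.01 over all tested genes. Scaling to 16 epithelial genes in place of all genes left Pard6b as the single member called higher, and Pard3 was then called lower, beside 2.55% of all tested genes called higher and 26.6% called lower under that scaling.

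The libraries held 27188499, 16872894 and 12608836 gene counts in KO 1, KO 2 and KO 3, and 19384171 and 13936790 in WT 1 and WT 2. Single members were covered by 215 to 8039 reads in a library. Ncstn was at 114, 117 and 123 CPM (read counts divided by TMM-scaled library sizes) in the knockouts, against 144 and 129.65 CPM in the wild types (log2 fold change -0.21 ± 0.09 SE, edgeR adjusted p = 0.133, not past the test). Every knockout lay below both wild types. The files count reads per gene and not per exon or cell type, so the deletion itself was not checked. All 17 urothelial markers were detected. Of these, 8 rose, among them the uroplakin genes Upk1a, Upk1b, Upk2, Upk3a and Upk3b, and 9 did not pass. The median log2 fold change of the 17 was 0.41, beside 0.36 for the 9 junction and polarity genes, and their summed level was 21620 to 24190 CPM in the knockouts, against 15460 to 17590 CPM in the wild types. Upk1a, a plaque protein gene of umbrella cells, was at 3826.3 to 4096.5 CPM in the knockouts and at 2409 and 2611 CPM in the wild types. The ribosomal precursor Rn45s took 0.608% to 1.53% of gene counts in the knockouts, against 7.84% and 3.23% in WT 1 and WT 2. The nuclear RNA Malat1 took 0.0658% to 0.0779% in the knockouts, against 0.390% and 0.281% in WT 1 and WT 2. Whether RNA preparation differed between the genotypes was not tested.

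Markers of other cells moved in the same libraries. The summed level of 15 fibroblast markers was 10120 to 12140 CPM in the knockouts, against 16820 to 19150 CPM in the wild types, and 13 of them fell. Endothelial markers summed to 589 to 706.5 CPM in the knockouts and to 819 to 857 CPM in the wild types, with 6 of 13 lower. The 16 epithelial markers summed to 9967 to 10870 CPM in the knockouts and 7866 to 9168 CPM in the wild types, with 6 of them higher and a median log2 fold change of 0.33. Leukocyte markers summed to 138, 206 and 362 CPM in KO 1 to KO 3, and to 382 and 411 CPM in WT 1 and WT 2, with 2 of 10 lower. The smooth muscle list spanned 302 to 449.7 CPM in the knockouts and 329.8 to 456 CPM in the wild types, with 1 of 9 lower. No marker was at 0 in every library. The dissected tissue thus held RNA of other cells besides epithelium, and the levels given below are those of the mixture. In bulk RNA of this kind, fewer cells of a type and less RNA per cell cannot be told apart, and the part of this shift in the results below was not tested beyond the scaling to epithelial genes.

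**Figure D1:**
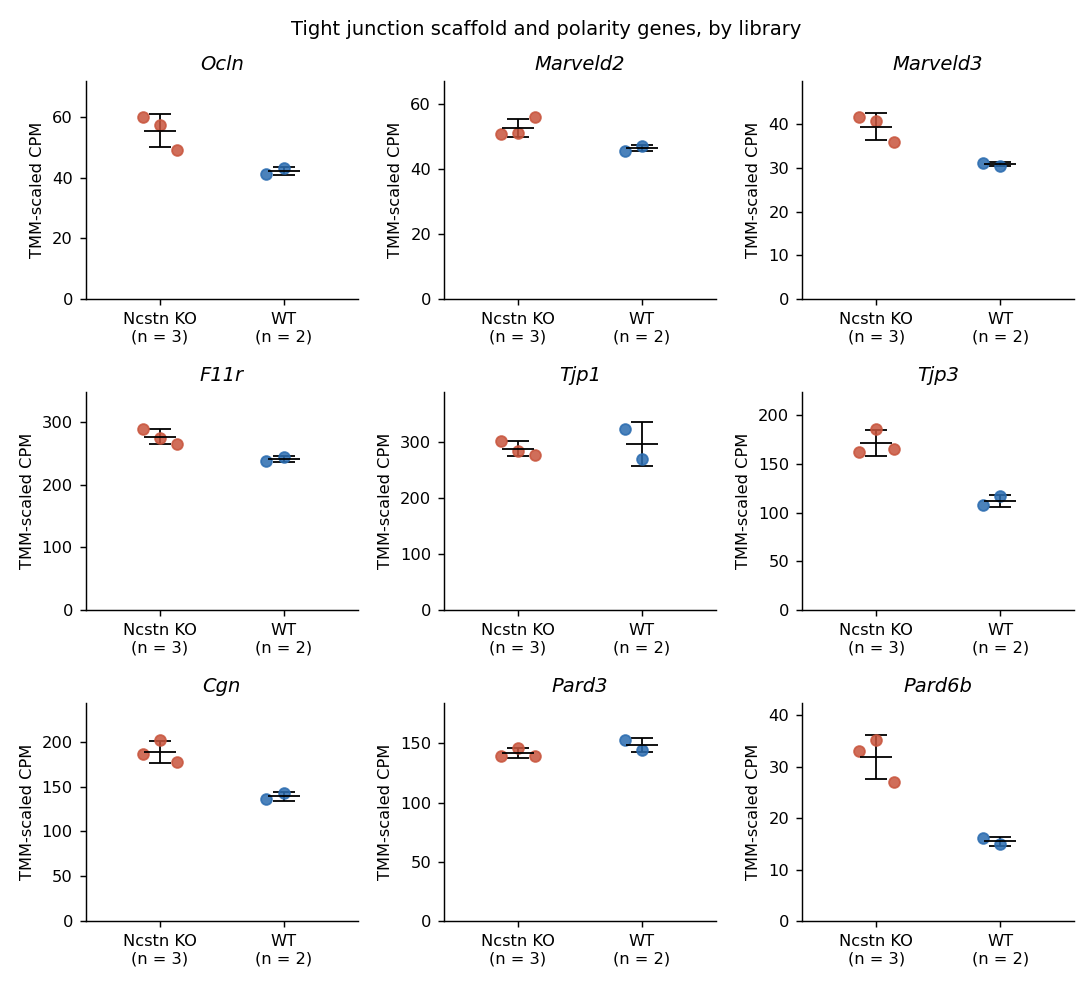
TMM-scaled CPM of the 9 genes in each library, with Ncstn KO (n = 3) left of WT (n = 2); points are libraries and bars show the mean ± SD. In 7 panels every knockout lies above both wild types, the exceptions being Tjp1 and Pard3, and the widest relative gap is that of Pard6b, with means of 31.9 and 15.6 CPM.

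The polarity genes held the highest and the lowest fold change of the 9 genes. Pard6b, which encodes one of the Par-6 adaptors that hold atypical protein kinase C in the polarity complex, was at 33.2, 35.3 and 27.1 CPM in KO 1 to KO 3, against 16.2 and 14.99 CPM in WT 1 and WT 2. Every knockout lay above both wild types, by at least 10.9 CPM. The log2 fold change was 1.03 ± 0.14 (SE; 95% interval 0.72 to 1.34; edgeR adjusted p = 0.00115), at the 97.4th percentile of all tested genes. Pard3, the scaffold of the same complex, was at 139.5, 146 and 139 CPM in the knockouts and at 153 and 144 CPM in the wild types. The groups overlapped, and the log2 fold change of Pard3 was -0.07 ± 0.09 (SE; 95% interval -0.27 to 0.13; edgeR adjusted p = 0.607). Within a library, reads of Pard6b per read of Pard3 were 0.238, 0.241 and 0.195 in the knockouts, against 0.106 and 0.104 in the wild types. This ratio does not depend on the scaling between libraries, and its mean was 2.14 times as high in the knockouts, a value given without a test.

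The scaffold genes were split in the same way. Tjp3, which encodes the scaffold ZO-3, was at 162, 186 and 165 CPM in KO 1 to KO 3, against 108 and 117 CPM in WT 1 and WT 2. The groups did not overlap, and Tjp3 rose by 0.61 ± 0.10 on the log2 scale (SE; 95% interval 0.38 to 0.83; edgeR adjusted p = 0.00308). Tjp1, which encodes ZO-1, the scaffold that ties the strands to actin, was at 303, 284 and 277 CPM in the knockouts and at 324 and 269.5 CPM in the wild types. Here WT 1 was the highest and WT 2 the lowest of all libraries, and the log2 fold change was -0.04 ± 0.11 (SE; 95% interval -0.29 to 0.20; edgeR adjusted p = 0.808). Without WT 1 the value of Tjp1 turned to 0.09 (edgeR adjusted p = 0.715), and without WT 2 it was -0.19 (edgeR adjusted p = 0.287). Cgn, which encodes cingulin, a plaque protein that binds ZO-1, actin and myosin, was at 186, 202 and 177 CPM in the knockouts, against 136 and 142 CPM in the wild types. Cgn rose by 0.44 ± 0.10 on the log2 scale (SE; 95% interval 0.22 to 0.65; edgeR adjusted p = 0.0120), with no overlap between the groups.

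Ratios within a library were also taken among the scaffolds, again without a test. Reads of Tjp3 per read of Tjp1 were 0.536, 0.656 and 0.596 in the knockouts and 0.333 and 0.432 in the wild types. Reads of Cgn per read of Tjp1 were 0.614, 0.712 and 0.641 in the knockouts and 0.419 and 0.528 in the wild types. In both ratios every knockout lay above both wild types, although the wild types differed from each other by about as much as the lowest knockout differed from the higher wild type. Reads from the 40 exonic bases that Tjp3 shares with Apba3 on the opposite strand cannot be told apart, since no source used here states whether the counting used strand. The other 8 genes share no exonic base with another gene in the GENCODE vM21 basic set.

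**Figure D2:**
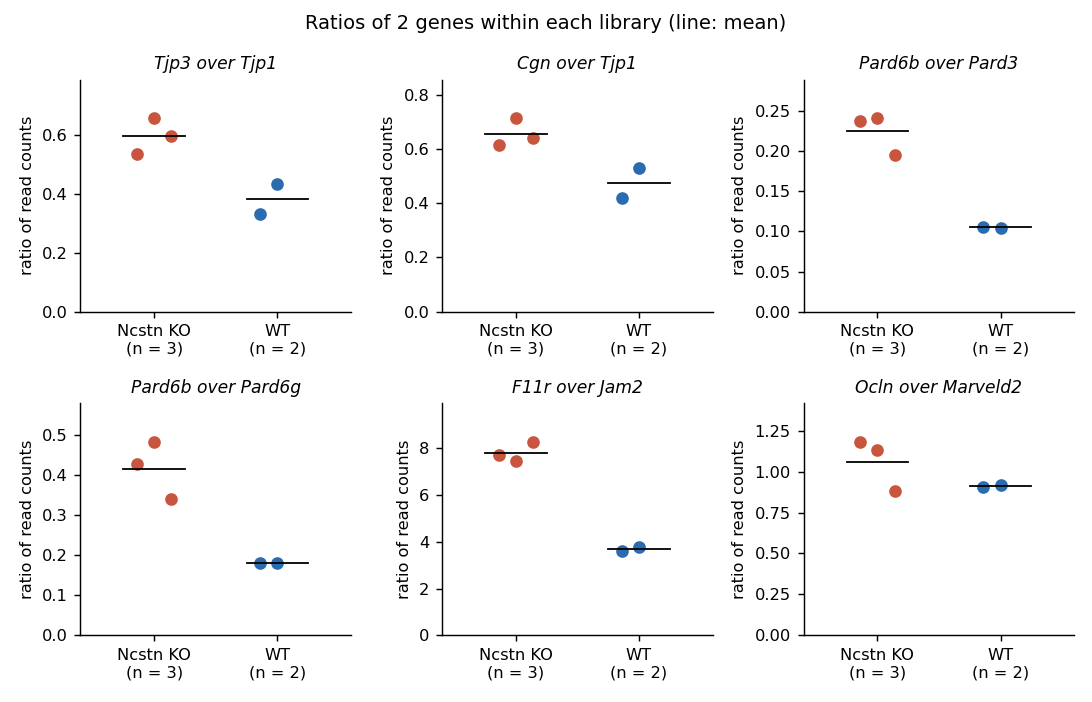
Ratio of the read counts of 2 genes within each library for 6 gene pairs, Ncstn KO (n = 3) left of WT (n = 2); points are libraries and lines are means. The groups do not overlap in 5 pairs, with means of 0.225 and 0.105 for Pard6b over Pard3, and they do overlap for Ocln over Marveld2, with means of 1.06 and 0.911.

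Of the 4 genes of membrane proteins, 2 rose and 2 did not pass. Ocln, which encodes occludin, was at 59.9, 57.6 and 49.3 CPM in KO 1 to KO 3, against 41.2 and 43.3 CPM in WT 1 and WT 2. All knockouts lay above the wild types, with KO 3 nearest to them, and Ocln rose by 0.40 ± 0.11 on the log2 scale (SE; 95% interval 0.15 to 0.65; edgeR adjusted p = 0.0316). Marveld3, a relative of occludin in the same MARVEL family, was at 41.6, 40.7 and 35.9 CPM in the knockouts, against 31.1 and 30.5 CPM in the wild types. It rose by 0.36 ± 0.11 on the log2 scale (SE; 95% interval 0.11 to 0.60; edgeR adjusted p = 0.0442), close to the threshold. Marveld2, which encodes tricellulin, the MARVEL protein of contacts where 3 cells meet, was at 50.7, 51.0 and 55.8 CPM in the knockouts and at 45.6 and 47.0 CPM in the wild types. The groups did not overlap, but Marveld2 missed the threshold (log2 fold change 0.18 ± 0.10 SE; 95% interval -0.04 to 0.40; edgeR adjusted p = 0.219).

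Ocln and Marveld2 lie 43.2 kb apart on the same strand of chromosome 13 (GRCm38 100496507 to 100552718 and 100595957 to 100616971). Reads of Ocln per read of Marveld2 were 1.18, 1.13 and 0.883 in the knockouts and 0.903 and 0.920 in the wild types. KO 3 lay below both wild types and the other knockouts lay above them, so this ratio did not separate the genotypes.

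F11r encodes the junctional adhesion molecule JAM-A, an immunoglobulin-type protein that binds Par-3 and ZO-1. It was at 289, 273 and 265 CPM in KO 1 to KO 3, against 237 and 244 CPM in WT 1 and WT 2. The knockouts all lay above the wild types, but the log2 fold change of 0.20 ± 0.09 did not pass (SE; 95% interval -0.01 to 0.40; edgeR adjusted p = 0.170). F11r lies on chromosome 1 (GRCm38 171437535 to 171464603), 601 kb from Ncstn. Of 48 tested genes within 1 Mb of Ncstn, 6 were higher and 8 lower in the knockouts, which makes 29.2% called against 19.7% of all tested genes. In all, 7 of the 9 genes had knockout and wild-type values that did not overlap, each with the knockouts higher, as did 25.9% of all tested genes.

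**Figure D3:**
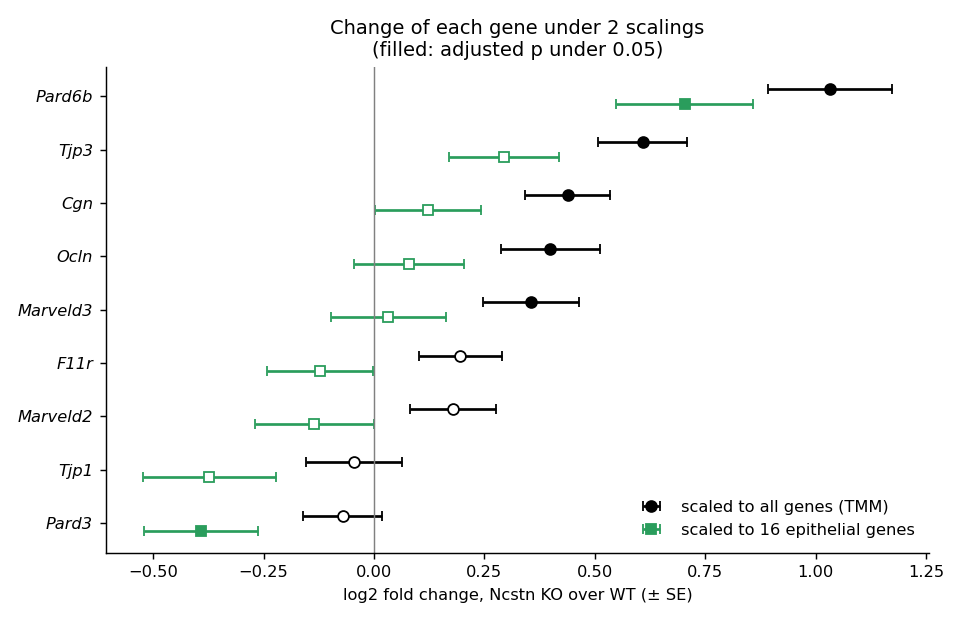
Log2 fold change (Ncstn KO over WT, ± SE) of the 9 genes with libraries scaled to all genes (black circles) and to 16 epithelial genes (green squares); filled symbols have an edgeR adjusted p under 0.05. The scaling to epithelial genes moves every gene to the left, leaves Pard6b at 0.70 and past the test, and puts F11r and Marveld2 at -0.12 and -0.13, where scaling to all genes gave 0.20 and 0.18.

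The epithelial scaling asks how the junction genes stood relative to the summed reads of the epithelial list in the same library. The keratin genes Krt7, Krt18, Krt19 and Krt8 weigh most in that sum. Their knockout means were 2571, 1950, 1249 and 1221 CPM, where the whole list summed to 9967 to 10870 CPM. Krt7 differed between the wild types, at 1987 CPM in WT 1 and 2481 CPM in WT 2. The scaling is thus mainly to these keratins and not to epithelial RNA in general. It moved the median of all genes by -0.32 on the log2 scale. The 9 genes then had a median of 0.03, against -0.31 for all tested genes. Their distance from the median of all genes was 0.34, and 0.35 with scaling to all genes. A new scaling moves all genes by nearly the same amount, so this distance was bound to stay and tests nothing. Pard6b stayed higher (log2 fold change 0.70 ± 0.16 SE, edgeR adjusted p = 0.0108). For Tjp3, Cgn, Ocln and Marveld3 the log2 fold changes came to 0.29, 0.12, 0.08 and 0.03, none past the test. Pard3 was lower (log2 fold change -0.39, edgeR adjusted p = 0.0463) and Tjp1 was at -0.37 (edgeR adjusted p = 0.0830). With a factor set by the median epithelial gene, a scaling added after the data were seen, Pard6b was again called higher (log2 fold change 0.69, edgeR adjusted p = 0.00809), and Pard3 and Tjp1 were both called lower (-0.41 and -0.39; edgeR adjusted p = 0.0220 and 0.0499). Over all genes the epithelial scaling called 377 higher and 3928 lower, where scaling to all genes called 1424 and 1483. The scaling to the median epithelial gene called 2.79% of all genes higher and 34.7% lower.

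The 3 genes with the largest rise among those with a promoter entry were Pard6b, Tjp3 and Cgn, and the bases before their transcription starts are shown to let a reader see which factor motifs they hold. The sequences are RefSeq's on GRCm38.p6, run 5′ to 3′ towards the gene and stop before any annotated exon. Capitals mark matches to TGGGAA, the core site of RBPJ, the DNA partner of released Notch, to CAGGTG, the E-box bound by Snail and Zeb repressors, and to AACNGGTT, a relaxed site of grainyhead-like factors.
Pard6b promoter, chr2:168080754-168081003, plus strand: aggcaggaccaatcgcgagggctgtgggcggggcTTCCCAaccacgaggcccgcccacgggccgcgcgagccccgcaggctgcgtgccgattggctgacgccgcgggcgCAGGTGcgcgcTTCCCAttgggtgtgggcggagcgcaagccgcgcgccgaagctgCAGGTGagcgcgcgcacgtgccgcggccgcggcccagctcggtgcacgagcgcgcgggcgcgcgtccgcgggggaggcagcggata
Tjp3 promoter, chr10:81291582-81291831, minus strand: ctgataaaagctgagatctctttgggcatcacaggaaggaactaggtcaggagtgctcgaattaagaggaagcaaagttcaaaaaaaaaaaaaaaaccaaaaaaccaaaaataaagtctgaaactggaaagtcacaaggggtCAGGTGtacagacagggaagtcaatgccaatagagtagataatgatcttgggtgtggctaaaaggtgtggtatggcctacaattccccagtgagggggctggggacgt
Cgn promoter, chr3:94786493-94786732, minus strand: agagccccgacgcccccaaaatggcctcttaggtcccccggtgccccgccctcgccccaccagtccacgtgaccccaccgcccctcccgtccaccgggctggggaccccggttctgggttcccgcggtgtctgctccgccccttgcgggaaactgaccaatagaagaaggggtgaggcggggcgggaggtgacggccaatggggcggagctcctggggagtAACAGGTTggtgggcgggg

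Pard6b held TGGGAA on the opposite strand (written TTCCCA here) starting 216 and 130 bases before its start, and CAGGTG starting 141 and 86 bases before it. Tjp3 held CAGGTG 108 bases before the start shown, and on the opposite strand 17 bases before a second start that is not shown. Cgn held AACAGGTT 29 bases before its start. Promoter entries were found for 8 of the 9 genes, with 12 starts, and each motif was searched on both strands of the 250 bases before a start. TGGGAA matched in Pard6b and Marveld2, 2 of 8 genes, and in 21.6% of all 32851 promoters. CAGGTG matched in 5 of 8 genes (Ocln, Tjp3, F11r, Pard3 and Pard6b) and in 17.2% of all promoters, where a gene with several starts counts as matched from any of them. AACNGGTT matched in Cgn alone and in 1.79% of all promoters, and its strict form AACCGGTT, which it includes, matched in none of the 8 and in 0.116% of all. General promoter elements were searched as well, again with a gene counted as matched from any of its starts. The members' windows held 43.2% to 79.2% G and C, and the background of all promoters was not matched for this. GGGCGG, bound by Sp and Klf factors, matched in 7 of 8 genes and 32.7% of all promoters, CCAAT in 6 of 8 and 33.8%, and TATAAA in 2 of 8 and 12.4%. CCAAT was the one motif matched in all 4 genes that rose and have an entry (Pard6b, Tjp3, Cgn and Ocln). In Ocln it matched before the second start alone. It also matched in F11r and Pard3, which did not pass. A match is a run of letters and not a known binding site, and a missing match speaks for these windows alone.

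Levels of different genes were compared as CPM per kilobase of annotated exon (GENCODE vM21 basic). F11r was highest, with means of 109.5 CPM per kb in the knockouts and 95.7 in the wild types. In the knockouts Tjp3 came next with 51.6, 59.2 and 52.5 CPM per kb, above Tjp1 with 42.6, 39.9 and 39.0. In the wild types Tjp3 had 34.3 and 37.1 CPM per kb, below Tjp1 with 45.6 and 37.9. The order of these scaffold genes thus differed between the genotypes, with WT 2 nearly level. Cgn followed with means of 31.3 CPM per kb in the knockouts and 23.1 in the wild types.

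The lower part of the order was the same in both genotypes. Pard3 had means of 16.2 and 17.0 CPM per kb in knockouts and wild types, and Marveld2 had 15.5 and 13.7. Ocln had 13.2 CPM per kb in the knockouts and 10.01 in the wild types, Marveld3 had 12.3 and 9.65, and Pard6b, the lowest, had 9.37 and 4.59. Within the knockouts the values of Pard3 and Marveld2 overlapped, and in KO 3 Marveld2 was the higher (16.5 against 15.9 CPM per kb). The values of Ocln and Marveld3 overlapped between knockouts, but Ocln was the higher within each library, barely so in WT 1 (9.76 against 9.74). No order was tested.

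The calls of the genes with smaller changes did not hold in every fit that left out 1 library. Pard6b passed whichever library was left out, with log2 fold changes of 0.94 to 1.11 and an edgeR adjusted p of at most 0.0236. Tjp3 was lost without WT 1 alone (log2 fold change 0.55, edgeR adjusted p = 0.0520). Cgn was lost without KO 2, WT 1 or WT 2 (edgeR adjusted p = 0.0554, 0.109 and 0.0534). Ocln was lost without KO 1, KO 2, WT 1 or WT 2 (edgeR adjusted p = 0.1075, 0.0924, 0.203 and 0.0993), and so was Marveld3 (edgeR adjusted p = 0.1404, 0.127, 0.192 and 0.164). Their log2 fold changes kept their sign and stayed between 0.34 and 0.46 for Ocln, 0.31 and 0.40 for Marveld3, and 0.37 and 0.46 for Cgn. Leaving out KO 1, KO 2 or KO 3 left 3, 2 and 5 members called higher. Beside them stood 835 of 14554, 807 of 14663 and 1743 of 14776 genes tested. With all 5 libraries 5 members and 1424 of 14779 genes were called higher. Marveld3 was also lost in DESeq2 (adjusted p = 0.0582), with upper-quartile scaling (edgeR adjusted p = 0.0653) and with a filter at a mean of 5 CPM (edgeR adjusted p = 0.0716).

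**Figure D4:**
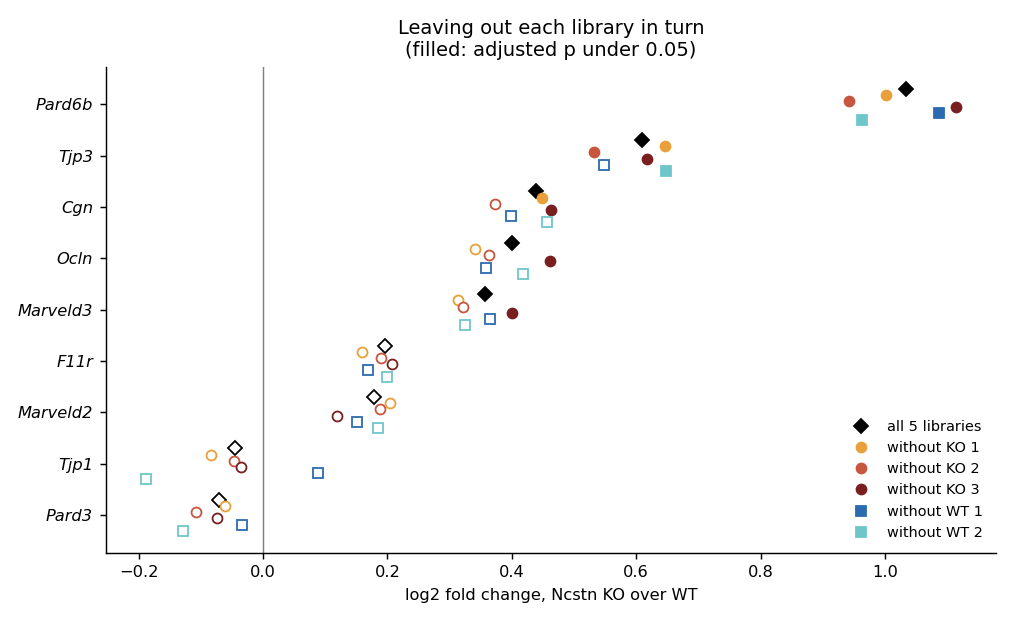
Log2 fold change (Ncstn KO over WT) of the 9 genes with all 5 libraries (diamonds) and with each library left out in turn (circles for a left-out KO, squares for a left-out WT); filled symbols have an edgeR adjusted p under 0.05. Pard6b is filled in every fit, between 0.94 and 1.11, while Tjp1 changes side between the fits without WT 1, at 0.09, and without WT 2, at -0.19.

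Of 6 paralogues of the 9 genes described here, 3 fell and 3 did not pass, beside the 10.0% of all tested genes called lower, and these counts do not cover every paralogue. With scaling to epithelial genes 5 of the 6 were lower, beside 26.6% of all tested genes, since Cgnl1 and Pard6g then passed too. Jam2 was at 37.6, 36.6 and 32.1 CPM in the knockouts, against 65.7 and 65.0 CPM in the wild types, and Jam3 was at 15.998, 17.4 and 16.5 CPM, against 25.5 and 30.04 CPM. Jam2 and Jam3, which encode the JAM-A relatives JAM-B and JAM-C known from endothelium, fell by 0.88 and 0.74 on the log2 scale (edgeR adjusted p = 0.000512 and 0.00308). In the same libraries the endothelial markers had a median of -0.43, with 6 of 13 lower. The fibroblast markers had a median of -0.67, with 13 of 15 lower. Whether the falls of Jam2 and Jam3 are tied to either set of markers was not tested. Reads of F11r per read of Jam2 were 7.69, 7.47 and 8.26 in the knockouts and 3.62 and 3.76 in the wild types.

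Pard3b, a second Par-3 gene, was at 19.6, 22.4 and 21.7 CPM in the knockouts, against 32.6 and 25.9 CPM in WT 1 and WT 2, and fell by 0.47 on the log2 scale (edgeR adjusted p = 0.0326). With scaling to all genes the other Par-6 genes did not pass. Pard6g was at 77.6, 73.2 and 80.0 CPM in the knockouts and 89.5 and 82.7 CPM in the wild types (log2 fold change -0.16, edgeR adjusted p = 0.235). With scaling to epithelial genes Pard6g was lower (log2 fold change -0.48, edgeR adjusted p = 0.0301), and so it was with scaling to the median epithelial gene (edgeR adjusted p = 0.0142). Pard6a was at 2.73 to 4.97 CPM in the knockouts and 4.60 and 5.09 CPM in the wild types (edgeR adjusted p = 0.496). Reads of Pard6b per read of Pard6g were 0.427, 0.482 and 0.339 in the knockouts, against 0.181 in both wild types. Cgnl1, which encodes the cingulin relative paracingulin, did not pass either with scaling to all genes (log2 fold change -0.24, edgeR adjusted p = 0.0899). Cgnl1 was lower with scaling to epithelial genes (log2 fold change -0.56, edgeR adjusted p = 0.0131), to the median epithelial gene (edgeR adjusted p = 0.00605) and with the filter at a mean of 5 CPM (edgeR adjusted p = 0.0485). Pard3b was lost without KO 1, KO 2 or WT 1 (edgeR adjusted p = 0.112, 0.0522 and 0.304), while Jam2 and Jam3 passed in all 5 of these fits.

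Beyond the 9 members, 45 tested genes of junction and polarity complexes, these paralogues included, held 7 that rose, 6 that fell and 32 that did not pass. These are 15.6% and 13.3% of them, beside the 9.64% and 10.0% of all tested genes, and their median log2 fold change was 0.01. With scaling to epithelial genes 2 of the 45 were higher and 15 lower, beside 2.55% and 26.6% of all tested genes. Without KO 1 the counts were 5 higher and 3 lower of 44, beside 835 and 912 of 14554 genes tested. Without KO 2 they were 5 and 5 of 44, beside 807 and 1094 of 14663. Without KO 3 they were 9 and 8 of 44, beside 1743 and 2246 of 14776. With all 5 libraries 1424 and 1483 of 14779 genes were called higher and lower. Counts without WT 1 or WT 2 are not given here, since only 1 wild type then remains.

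**Figure D5:**
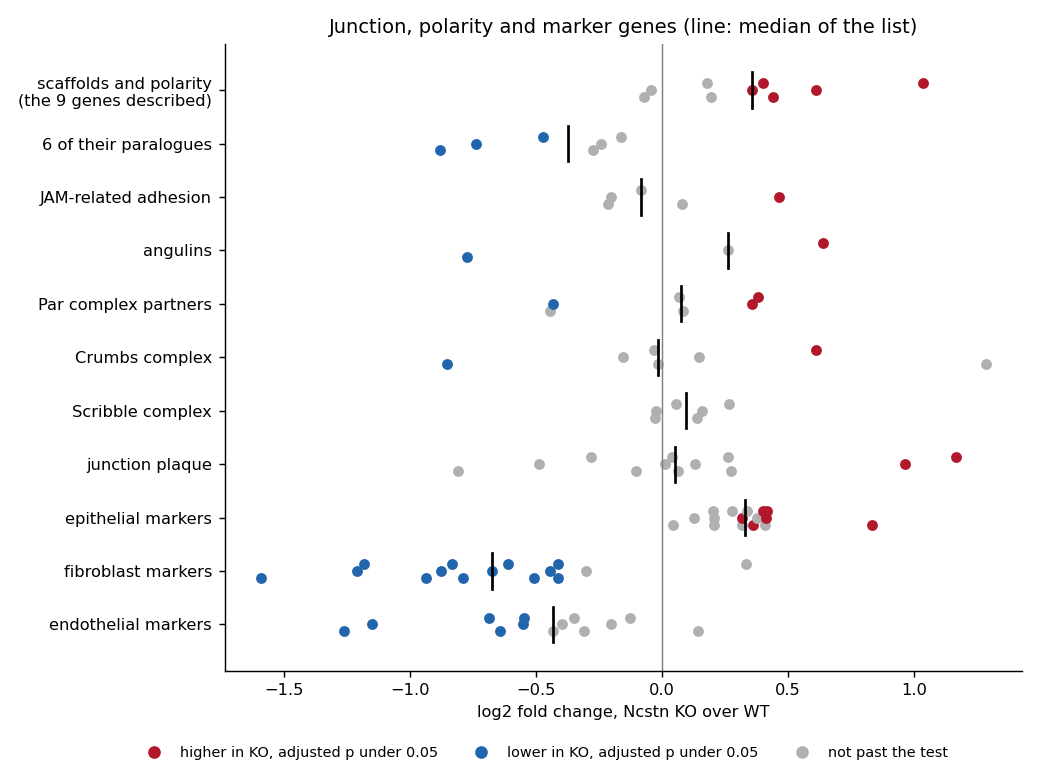
Log2 fold change (Ncstn KO over WT, libraries scaled to all genes) of the tested genes of each list; points are genes, red and blue mark genes called higher and lower in KO, grey marks the rest, and black lines are list medians. The 9 genes described have a median of 0.36, near the 0.33 of the epithelial markers, while fibroblast and endothelial markers have medians of -0.67 and -0.43; with scaling to epithelial genes the 9 genes have a median of 0.03.

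Both kinase genes whose products work with Par-6 rose with scaling to all genes. Prkci, which encodes atypical protein kinase C iota, was at 240.5, 236 and 207 CPM in the knockouts, against 191 and 165 CPM in the wild types (log2 fold change 0.36, edgeR adjusted p = 0.0461). Prkcz, which encodes the zeta form, was at 50.5, 47.8 and 47.0 CPM in the knockouts, against 36.2 and 38.3 CPM in the wild types (log2 fold change 0.38, edgeR adjusted p = 0.0231). Both passed in 1 of the 5 fits that left out a library, the one without KO 3, with an edgeR adjusted p of up to 0.239 for Prkci and 0.169 for Prkcz in the others (both highest without a WT library). Prkci was also lost with upper-quartile scaling (edgeR adjusted p = 0.0663), with the filter at a mean of 5 CPM (edgeR adjusted p = 0.0800) and without nuclear and ribosomal RNA rows (edgeR adjusted p = 0.0508). Tiam1, which encodes a Rac activator that binds Par-3, fell by 0.43 on the log2 scale (edgeR adjusted p = 0.0126) and was lost without KO 1 and without WT 1 (edgeR adjusted p = 0.0512 and 0.118). Cdc42, the small GTPase that binds Par-6, was at 428 to 521 CPM in the knockouts and at 439 and 440.3 CPM in the wild types and missed the threshold (edgeR adjusted p = 0.632).

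The Crumbs and Scribble complexes mark the apical and the basolateral side of the junction. Of 7 tested Crumbs complex genes, 1 rose, 1 fell and 5 did not pass. Crb3, which encodes the epithelial Crumbs protein that binds Par-6, was at 39.3, 38.4 and 32.8 CPM in the knockouts, against 23.6 and 24.8 CPM in the wild types, and rose by 0.61 on the log2 scale (edgeR adjusted p = 0.00664, and 0.0819 without WT 1, where the call was lost). Mpdz, which encodes the multi-PDZ scaffold MUPP1, was at 27.6, 24.3 and 26.6 CPM in the knockouts, against 52.2 and 42.2 CPM in the wild types, and fell by 0.85 on the log2 scale (edgeR adjusted p = 0.00140). None of 6 Scribble complex genes passed in edgeR with scaling to all genes, in DESeq2 or in limma-voom, and 1, Scrib, had an unadjusted edgeR p under 0.05. The edgeR log2 fold changes of these genes were -0.03 to 0.26. Dlg1 alone passed under a scaling to epithelial genes, as lower with the median epithelial gene (log2 fold change -0.36, edgeR adjusted p = 0.0438).

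Angulins recruit tricellulin to the contacts of 3 cells. Ildr1, which encodes angulin-2, was at 218, 214 and 195 CPM in the knockouts, against 137 and 132 CPM in the wild types, and rose by 0.64 on the log2 scale (edgeR adjusted p = 0.00183). It passed with every library left out, while Marveld2 itself did not pass. Ildr2 fell by 0.77 on the log2 scale (edgeR adjusted p = 0.0364), at 4.59 to 6.56 CPM in the knockouts against 11.1 and 7.67 CPM in WT 1 and WT 2, and was lost without KO 1 and without WT 1 (edgeR adjusted p = 0.119 and 0.378). Lsr, which encodes angulin-1, was at 95.6 to 109 CPM in the knockouts and at 85.4 and 87.3 CPM in the wild types and missed the threshold (log2 fold change 0.26, edgeR adjusted p = 0.0796). Of 5 tested JAM-related adhesion genes, Igsf5, which encodes JAM4, rose by 0.47 on the log2 scale (edgeR adjusted p = 0.0127, but 0.0759 without WT 1 and 0.0810 without WT 2), and 4 did not pass. With scaling to epithelial genes the calls of Prkci, Prkcz, Crb3, Ildr1 and Igsf5 were lost, at log2 fold changes of 0.03, 0.06, 0.29, 0.32 and 0.14.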

How the data were processed

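Per the labels' protocols, urothelium was separated from the muscularis propria, total RNA was extracted, and an Illumina TruSeq kit was used for the libraries. The submitters' processing notes name build mm10 with the tools HISAT2 (2.1.0), HTSeq (0.11.1) and DESeq2. No source used here states the annotation or the strand setting. The deposited values were raw gene counts, 1 file per library, and 5 summary entries of the counting program were left out (genes held 49.3% to 60.6% of tallied reads, the lowest in WT 1).

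Low genes were removed with filterByExpr at its minimum count of 10 and total of 15, libraries were scaled with TMM factors of 0.978 to 1.03, and genotypes were compared with the edgeR 4.0.16 quasi-likelihood test (R 4.3.3), with adjustment over all 14779 genes. Standard errors were taken from the fold change and its F statistic. Alternatives used limma 3.58.1 voom, DESeq2 1.42.0, other scalings and filters, a block for replicate number, and each library left out. Where WT 1 or WT 2 was left out, the lone wild type was assumed to vary like the knockouts. On simulated data of 14594 genes the test recovered 44.9% of genes altered 1.5-fold and 87.8% at 2-fold, with 5.26% of calls false. The simulation gave 171 calls, against 2907 in the data, and took each gene's spread from the trend over genes. Its shares therefore do not give the recovery in these data. The design text counts mice, so each library was taken as 1 animal, and replicates differed by 9.26 to 36.3 times counting error (chi-square per degree of freedom), so none was a repeat deposit.

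The members and lists were chosen with earlier results of these data known. The rule for named genes took the 9 members, the paralogues, and up to 4 called genes of each other junction list. A paralogue and a junction list are not reported here. Cdc42, Lsr, Rn45s and Malat1 were added after their values were seen. Positions and exon lengths come from GENCODE vM21 (GRCm38, the assembly named mm10), matched by symbol.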

Additional observations from a re-analysis of the deposited data

How the results depend on the processing

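Over 16 alternatives, Pard6b kept its direction and call in all. Scaling to epithelial genes called 377 genes higher and 3928 lower, with 1 member higher and 1 lower. Scaling to the median epithelial gene, added after the data were seen, called 5539 genes, 413 higher and 5126 lower, with 1 member higher and 2 lower. Under these scalings F11r turned to -0.12 and -0.14 and Marveld2 to -0.13 and -0.15. Leaving out each library in turn gave 715 to 3989 called genes, 340 to 1743 higher and 375 to 2246 lower, and 1 to 5 members higher and none lower; Tjp1 ranged from -0.19 without WT 2 to 0.089 without WT 1. A block for replicate number, in which KO 3 has no partner and adds nothing, called 4637 genes, 2211 higher and 2426 lower, and the same number of members, 5. Same-numbered libraries deviated together with correlations of -0.055 and 0.052 across genes, and the labels do not say that the numbers pair mice. The cause of these shifts was not tested. On simulated data 44.9% of genes altered 1.5-fold were recovered with 3 against 2 mice. That simulation gave far fewer calls than the data (171 against 2907), so this share does not give the recovery here. Smaller changes, such as those of F11r and Marveld2, could be missed, at a rate that was not tested.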

Other observations

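Among the 45 other junction and polarity genes, Amotl2 and Tjap1 had the highest log2 fold changes of those that rose. Both belong to the list of 12 plaque genes, of which 2 rose and 10 did not pass; at an unadjusted edgeR p under 0.05, 3 were higher and 3 lower. Amotl2, which encodes an angiomotin relative of the junction plaque, was at 64.0, 66.2 and 53.96 CPM in the knockouts, against 24.3 and 30.7 CPM in the wild types, and rose by 1.16 on the log2 scale (edgeR adjusted p = 0.000519). It passed with every library left out and with scaling to epithelial genes (log2 fold change 0.85, edgeR adjusted p = 0.00203). Tjap1, named for its association with tight junctions, was at 66.5, 78.6 and 44.1 CPM in the knockouts, against 32.0 and 32.8 CPM in the wild types, with KO 3 nearest to the wild types. It rose by 0.96 on the log2 scale (edgeR adjusted p = 0.00918) and was lost without WT 1 and without WT 2 (edgeR adjusted p = 0.104 and 0.0702), and it passed with scaling to epithelial genes (log2 fold change 0.63, edgeR adjusted p = 0.0348).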
